A study of Mus musculus with 15 samples.

Results

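A set of 10 genes of phagocytosis, the uptake of cells and particles by macrophages and other phagocytes, was followed in RNA-seq profiles of mouse mammary tumours. They were taken by symbol from the deposited table of 17271 genes, and all 10 were present: the Fc gamma receptors Fcgr1, Fcgr2b, Fcgr3 and Fcgr4, the inhibitory pair Sirpa and Cd47, the TAM receptors Tyro3, Axl and Mertk, and the TAM ligand Gas6. The 15 samples are p53-null tumours of the Balbc strain, that is, every group compared lacks p53 by its label, and they belong to 4 tumour models. The model 2208L has 8 samples, 2151R has 4, 2225L has 2 and T11 has a single one. By title, 2208L consists of PBS samples (n = 4), 3day nt samples (n = 3) and a ROSEN sample (n = 1). In 2151R, replicates 3 and 4 are titled NT and the other two carry codes. One of the 2225L samples has CP in its title and the other ROSEN. The labels give no age, sex or treatment and do not explain these codes, although the series title speaks of chemotherapy and macrophage depletion. No label says whether samples of a model came from separate animals, so the p-values measure only the spread between samples.

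Fc gamma receptors bind the constant part of IgG antibodies. Fcgr1, Fcgr3 and Fcgr4 signal through the shared gamma chain and activate phagocytes, whereas Fcgr2b carries an inhibitory motif and restrains them. Cd47 on a target cell engages Sirpa on the phagocyte and blocks engulfment. The TAM receptor kinases Tyro3, Axl and Mertk bind phosphatidylserine on dying cells through bridging ligands, clear these cells and dampen inflammation. Gas6 is a bridging ligand of each of them, and protein S is one of Tyro3 and Mertk. Axl is also made by many mesenchymal tumour cells, and in macrophages Mertk is the main receptor for clearing dead cells.

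Fcgr2b, Fcgr4 and Fcgr3 lie side by side on mouse chromosome 1 (chr1:170960558-170976071, chr1:171018926-171029761 and chr1:171051169-171065915), and Fcgr1 lies on chromosome 3 (chr3:96282909-96293969), in the RefSeq annotation of GRCm38.p6. The 150 bases before a listed transcript start of each Fc gamma receptor gene are shown because the genes gave different patterns below. For Fcgr1, Fcgr4 and Fcgr2b this start is the end of the gene span given above, and for Fcgr3 it lies inside that span. They are RefSeq sequences of that build, written along the strand of the gene. Capitals mark TTCCTC, the reverse complement of GAGGAA, a core recognised by the myeloid factor PU.1.
Fcgr1, chr3:96293970-96294119, minus strand: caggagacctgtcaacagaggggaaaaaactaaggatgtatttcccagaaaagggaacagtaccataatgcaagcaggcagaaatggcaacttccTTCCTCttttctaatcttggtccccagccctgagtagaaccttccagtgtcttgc
Fcgr3, chr1:171059395-171059544, minus strand: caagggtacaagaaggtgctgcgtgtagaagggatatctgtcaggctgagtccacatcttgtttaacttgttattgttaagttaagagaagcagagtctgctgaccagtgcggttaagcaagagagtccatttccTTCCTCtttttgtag
Fcgr4, chr1:171018776-171018925, plus strand: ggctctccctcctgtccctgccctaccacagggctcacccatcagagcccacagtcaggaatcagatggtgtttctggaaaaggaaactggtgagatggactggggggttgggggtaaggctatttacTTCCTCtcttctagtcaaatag
Fcgr2b, chr1:170976072-170976221, minus strand: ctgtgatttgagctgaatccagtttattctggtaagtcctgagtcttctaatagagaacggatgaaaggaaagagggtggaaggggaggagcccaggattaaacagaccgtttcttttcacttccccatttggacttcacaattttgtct

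The match began 55 bases before the start of Fcgr1, 22 before that of Fcgr4 and 15 before this start of Fcgr3 (6 before the other start listed for it), and there was none in the 250 bases before Fcgr2b. Searched on both strands of the 250 bases before the start, GAGGAA was present in 23.3% of all 32851 promoters of the table, and among the other members with a promoter there only Axl held it, 130 bases before its start. TGACTCA, the AP-1 site, was in 4.46% of promoters and in no member, and GGAATG, a TEAD site, was in 12.6% and in Axl. Matches describe letters only. No promoter sequence of Sirpa was used.

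Values are log2 ratios to a reference level of the same gene that is not stated, so samples can be compared for a gene while genes cannot be ranked by level. In these bulk tumours fewer cells of a type and less RNA per cell cannot be told apart. The table holds no counts, so sequencing depth is unknown. Trp53, which encodes p53, ranged from -0.29 to 0.29 in 14 of the samples and was 1.63 in replicate 1 of 2225L. Such centred values do not show whether it is expressed. Replicate 3 of 2151R and replicates 6 and 8 of 2208L had a mean of 8 skeletal muscle genes of 7.11, 10.65 and 10.10, against -4.13 to 3.0 in the other 12 samples. Library numbers of 2151R, of the PBS samples and of the 3day nt samples fall in separate ranges, so these groups and their library ranges cannot be told apart.

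**Figure D1:**
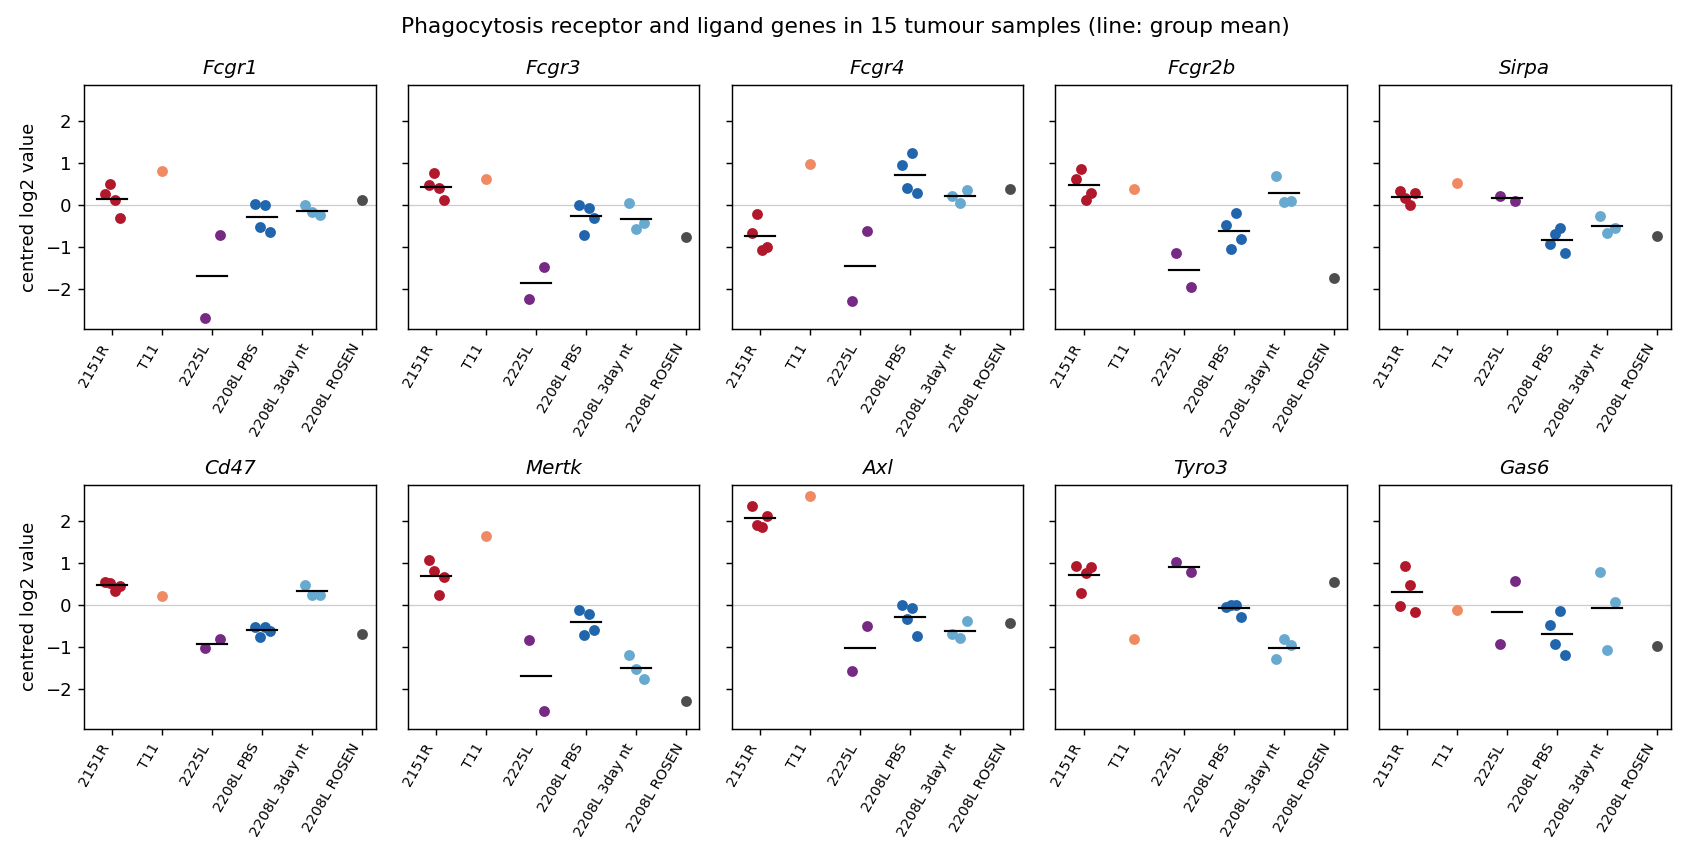
Centred log2 value (y axis) of each of the 10 genes in 15 tumour samples, by model and subset of 2208L (x axis). Points are samples and lines are group means. Axl lies from 1.86 to 2.60 in 2151R and T11 and at or below 0.00 in all samples of 2225L and 2208L.

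Calls between models went both ways against 2208L and only downward in 2225L against 2151R. Of the 10 genes, 6 were higher and 1 was lower in 2151R relative to 2208L at a limma adjusted p-value under 0.05, where 26.1% of all genes were called higher and 22.7% lower. In 2225L, 2 were higher and 3 lower than in 2208L (15.6% and 17.3% of all genes). None was higher and 6 were lower in 2225L than in 2151R (22.8% and 25.8% of all genes). These 3 comparisons share samples, so they are not independent, and whether the counts exceed the shares of all genes was not tested. Inside 2208L the PBS samples exceeded the 3day nt samples at 2 genes and lay below them at 2 (17.4% and 16.5% of all genes). The single T11 sample lay above all 8 samples of 2208L at 5 of the 10 genes (Fcgr1, Fcgr3, Sirpa, Mertk and Axl) and below all at 0, where 35.8% and 21.7% of all genes did so. It has no replicate and no test.

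**Figure D2:**
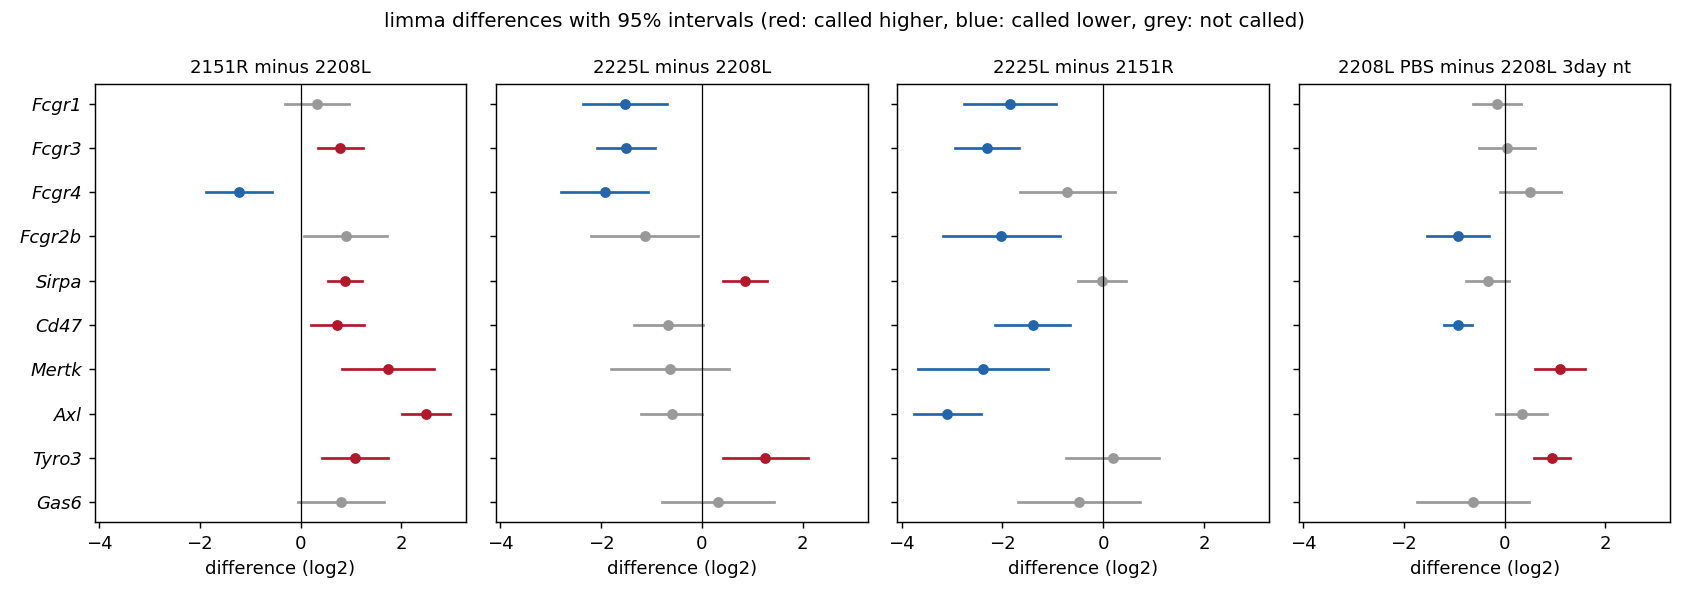
Difference in log2 value (x axis) of each gene in 4 comparisons, estimated with limma. Points are differences, bars are 95% intervals without adjustment for the number of genes, red and blue mark genes called higher or lower in the first group at an adjusted p-value under 0.05, and grey marks genes not called. Axl has the largest difference of the 10 genes between 2151R and 2208L (2.49) and between 2225L and 2151R (-3.09).

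Among the activating Fc receptors, Fcgr4 was low in 2151R while Fcgr3 was high. Fcgr4, which binds IgG2 subclasses, had values of -0.66, -0.21, -1.07 and -1.01 in the 4 samples of 2151R. In 2208L it ran from 0.04 to 1.24 with a median of 0.38. The groups did not overlap, and the difference was -1.22 (SE 0.31, limma adjusted p 0.00495), or 2.33-fold. Fcgr3, the low-affinity activating receptor, was 0.47, 0.76, 0.42 and 0.11 in 2151R and ran from -0.77 to 0.05 with a median of -0.37 in 2208L. All samples of 2151R lay above those of 2208L, and the difference was 0.79 (SE 0.21, limma adjusted p 0.00659), or 1.73-fold. Fcgr1, the high-affinity receptor, had a mean of 0.15 ± 0.34 (SD, n = 4) for 2151R samples, with -0.18 ± 0.28 (SD, n = 8) for those of 2208L, and the samples overlapped. Its difference of 0.33 did not pass the test (95% interval -0.32 to 0.97, limma adjusted p 0.387). Against the 3day nt samples alone the Fcgr4 difference was -0.94 and was no longer called (limma adjusted p 0.0539), and with only the samples titled NT in 2151R that of Fcgr3 was 0.62 (limma adjusted p 0.116).

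All 3 activating receptors were lower in 2225L than in 2208L. Fcgr1 was -2.69 in replicate 1 of 2225L and -0.71 in replicate 2, Fcgr3 was -2.25 and -1.47, and Fcgr4 was -2.28 and -0.61. Both samples of 2225L lay below all 8 of 2208L at each of these genes, and the first, with a CP title, was the lower of the pair at all 3. The differences were -1.52 for Fcgr1 (limma adjusted p 0.00859), -1.51 for Fcgr3 (0.000909) and -1.93 for Fcgr4 (0.00235). Against 2151R, Fcgr1 was lower with a difference of -1.85 (limma adjusted p 0.00284) and Fcgr3 by one of -2.30 (limma adjusted p 3.19e-05), while that of Fcgr4, -0.71, did not pass (95% interval -1.64 to 0.23). Without replicate 1 of 2225L, which leaves 1 sample assumed to vary like the other models, the differences from 2208L were -0.53 for Fcgr1 and -1.09 for Fcgr4 and neither was called (limma adjusted p 0.226 and 0.0638). In that fit Fcgr1 was also no longer called against 2151R (-0.86, limma adjusted p 0.0518).

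Fcgr2b, the inhibitory receptor, was high in 2151R and in the 3day nt samples. It was 0.62, 0.85, 0.11 and 0.29 in 2151R, 0.38 in T11, and -1.15 and -1.96 for the 2225L pair. Within 2208L the values were -0.47, -1.04, -0.19 and -0.82 in the PBS samples, 0.70, 0.08 and 0.09 in the 3day nt samples and -1.74 in the ROSEN sample. PBS samples lay below 3day nt samples with no overlap (difference -0.92, SE 0.26, limma adjusted p 0.0349). The 2225L samples lay below those of 2151R (difference -2.03, SE 0.54, limma adjusted p 0.0073). Differences from 2208L as a whole were 0.89 for 2151R and -1.13 for 2225L, and neither passed (limma adjusted p 0.0673 and 0.0946). With the PBS samples alone as the reference, 2151R was higher by 1.10 (limma adjusted p 0.00461) and 2225L differed by -0.93 (limma adjusted p 0.0331), whereas against the 3day nt samples 2151R differed by 0.18 (limma adjusted p 0.614) and 2225L by -1.85 (limma adjusted p 0.00174). The call between the subsets was lost without replicate 2, 3, 5, 6 or 8 of 2208L (adjusted p 0.0634 to 0.109), and that between 2225L and 2151R without replicate 2 of 2225L (-1.62, adjusted p 0.0871).

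Fcgr2b and Fcgr3 have similar transcripts, which bears on both. Of the words of 31 bases in GENCODE M21 transcripts of Fcgr3, 13.4% also occur in Fcgr2b, and of those of Fcgr2b 4.15% occur in Fcgr3. Salmon is named in the submitters' processing notes, but how such reads were split is not stated. Both genes are uncertain for this reason, and the shares of words do not measure by how much. Fcgr1, Mertk, Axl, Tyro3 and Gas6 shared 0% of these words with any other gene, and Fcgr4, Cd47 and Sirpa at most 1.58%.

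The log2 ratio of Fcgr4 to Fcgr2b, taken within each sample and so free of scaling between samples, set these patterns side by side. It was -1.28, -1.06, -1.18 and -1.30 in 2151R, 1.44, 1.45, 1.42 and 1.09 in PBS samples and -0.49, -0.04 and 0.28 in 3day nt samples. It was 2.13 in the ROSEN sample of 2208L, 0.59 in T11 and -1.13 and 1.35 in 2225L. The ratio was thus lower in every sample of 2151R than in every PBS sample, and the 2 samples of 2225L lay far apart. Its zero depends on the unstated reference levels of both genes, so only differences between samples can be read. It was chosen after the values were seen, and no test is given.

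Sirpa, the inhibitory receptor of phagocytes, was lowest in 2208L. It was 0.33, 0.16, -0.01 and 0.28 in 2151R, 0.51 in T11, and 0.22 and 0.10 for the 2225L pair. Among 2208L samples it ran from -1.15 to -0.27 with a median of -0.69, below every sample of the other models. The difference from 2208L was 0.88 in 2151R (SE 0.15, limma adjusted p 0.000364) and 0.86 in 2225L (SE 0.20, limma adjusted p 0.00527), or 1.85-fold and 1.81-fold. Between 2225L and 2151R the difference was -0.03 (95% interval -0.50 to 0.44). Within 2208L, PBS samples averaged -0.83 ± 0.26 (SD, n = 4) and 3day nt samples -0.50 ± 0.21 (SD, n = 3), a difference of -0.33 that did not pass (95% interval -0.77 to 0.10). Both Sirpa calls held against either subset of 2208L alone and in each fit that left out 1 sample.

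Cd47, the ligand of Sirpa and a signal against being eaten, divided 2208L. It was -0.52, -0.76, -0.52 and -0.61 in the PBS samples, 0.48, 0.24 and 0.24 in the 3day nt samples and -0.69 in the ROSEN sample. The PBS samples were lower with no overlap, with a difference of -0.93 (SE 0.12, limma adjusted p 0.0045), or 1.90-fold, and the ROSEN sample lay in the PBS range. Cd47 was 0.54, 0.52, 0.34 and 0.45 in 2151R, 0.21 in T11 and -1.04 and -0.83 in 2225L. It was higher in 2151R than in 2208L by 0.73 (SE 0.24, limma adjusted p 0.024) and lower in 2225L than in 2151R with a difference of -1.40 (SE 0.34, limma adjusted p 0.00476). The difference between 2225L and 2208L, -0.67, did not pass (limma adjusted p 0.124), although both samples of 2225L lay below all of 2208L. Against the 3day nt samples alone 2151R differed by 0.14 and was not called (limma adjusted p 0.363), and 2225L by -1.25 and was called (limma adjusted p 0.00012). Against the PBS samples alone 2151R differed by 1.07 and was called (limma adjusted p 1.9e-05), and 2225L by -0.33 and was not (limma adjusted p 0.0782). The call between 2151R and 2208L was also lost without replicate 1, 2 or 4 of 2151R (adjusted p 0.0540 to 0.0626) and with its NT samples only (0.66, adjusted p 0.167).

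The log2 ratio of Cd47 to Sirpa within a sample was -1.26 and -0.93 in 2225L and -0.30 in T11. It ran from 0.17 to 0.36 in 2151R, from -0.06 to 0.53 in PBS samples and from 0.75 to 0.92 in 3day nt samples, and was 0.05 in the ROSEN sample. The 2 samples of 2225L were the lowest of the 15 and the 3 of 3day nt the highest. No test is given for this ratio either.

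Axl separated 2151R from 2208L and from 2225L most among these genes. It was 2.36, 1.90, 1.86 and 2.12 in 2151R and 2.60 in T11. In 2208L it ran from -0.80 to 0.00 with a median of -0.41, and in 2225L it was -1.57 and -0.50. No sample of 2151R came near those of 2208L, and the difference was 2.49 (SE 0.22, limma adjusted p 6.81e-07), or 5.62-fold. From 2151R to 2225L Axl was lower with a difference of -3.09 (SE 0.31, limma adjusted p 3.2e-06), or 8.52-fold. The difference of 2225L from 2208L, -0.60, did not pass (95% interval -1.20 to 0.00, limma adjusted p 0.117), and without replicate 2 of 2225L it was -1.13 and passed (limma adjusted p 0.0164). PBS and 3day nt samples differed by 0.34 (95% interval -0.16 to 0.85). Both Axl calls held in every alternative that was run.

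Mertk was high in 2151R and T11 and differed between the subsets of 2208L. It was 1.07, 0.80, 0.23 and 0.67 in 2151R and 1.64, the highest of the 15 samples, in T11. In 2208L it was -0.12, -0.72, -0.21 and -0.59 in the PBS samples, -1.20, -1.53 and -1.77 in the 3day nt samples and -2.28 in the ROSEN sample. The 2 samples of 2225L were at -0.84 and -2.53. 2151R was higher than 2208L by 1.74 (SE 0.42, limma adjusted p 0.00399), or 3.35-fold, with no overlap, and 2225L was lower than 2151R with a difference of -2.38 (SE 0.60, limma adjusted p 0.00532). PBS samples were higher than 3day nt samples by 1.09 (SE 0.21, limma adjusted p 0.0107), or 2.13-fold, also with no overlap. 2225L and 2208L differed by -0.63 (95% interval -1.81 to 0.55), while 2225L differed from the PBS samples alone by -1.28 and was called (limma adjusted p 0.0222) and from the 3day nt samples alone by -0.19 (limma adjusted p 0.761). The difference of 2151R was 1.10 from PBS samples and 2.19 from 3day nt samples, called in both. With only the NT samples of 2151R its call against 2208L was lost (1.5, limma adjusted p 0.071), and without replicate 2 of 2225L so was that between 2225L and 2151R (-1.53, limma adjusted p 0.108).

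Tyro3, the TAM receptor best known from neurons, was the only one of the 3 that was high in 2225L, and in T11 it was low. It was 0.93, 0.29, 0.76 and 0.89 in 2151R, -0.83 in T11, and 1.03 and 0.78 for the 2225L pair. Within 2208L the values were -0.05, 0.00, 0.00 and -0.28 in the PBS samples, -1.29, -0.82 and -0.95 in the 3day nt samples and 0.53 in the ROSEN sample. T11 lay below every sample of 2151R, whereas for Axl and Mertk it lay above every one. Tyro3 was higher than in 2208L by 1.08 in 2151R (SE 0.30, limma adjusted p 0.00949) and by 1.26 in 2225L (SE 0.39, limma adjusted p 0.024). Between 2225L and 2151R it differed by 0.18 (95% interval -0.73 to 1.10), and PBS samples were higher than 3day nt samples by 0.94 (SE 0.15, limma adjusted p 0.00685). From PBS samples alone Tyro3 differed by 0.80 in 2151R and 0.99 in 2225L, and from 3day nt samples alone by 1.74 and 1.93, called in all 4. The call of 2225L against 2208L was lost without either sample of 2225L, with differences of 1.14 without replicate 1 and 1.38 without replicate 2. Quantile normalization (limma adjusted p 0.0782) and a fit of these 2 models only (0.0542) lost it too. So did the title prefix, CP or ROSEN, as a covariate (0.0657). The mean of macrophage markers described below, as a covariate, also lost the call (0.53, limma adjusted p 0.462).

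Gas6, the ligand of all 3 TAM receptors, was called in no comparison as first fitted. It was -0.03, 0.93, 0.48 and -0.17 in 2151R, -0.13 in T11 and -0.93 and 0.58 in 2225L, and in 2208L it ran from -1.21 to 0.79 with a median of -0.70. The difference of 2151R from 2208L was 0.80 (95% interval -0.06 to 1.66, limma adjusted p 0.113). It became 0.98 and passed without replicate 6 of 2208L (limma adjusted p 0.0312), which has the highest Gas6 value of that model. With the macrophage marker mean described below as a covariate, Gas6 was called in 2225L against 2208L (1.88, limma adjusted p 0.0137). Pros1, which encodes protein S, the other TAM ligand, was named after its values were seen. It was lower than in 2208L in 2151R (difference -2.60) and in 2225L (difference -3.40), and both passed the test.

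**Figure D3:**
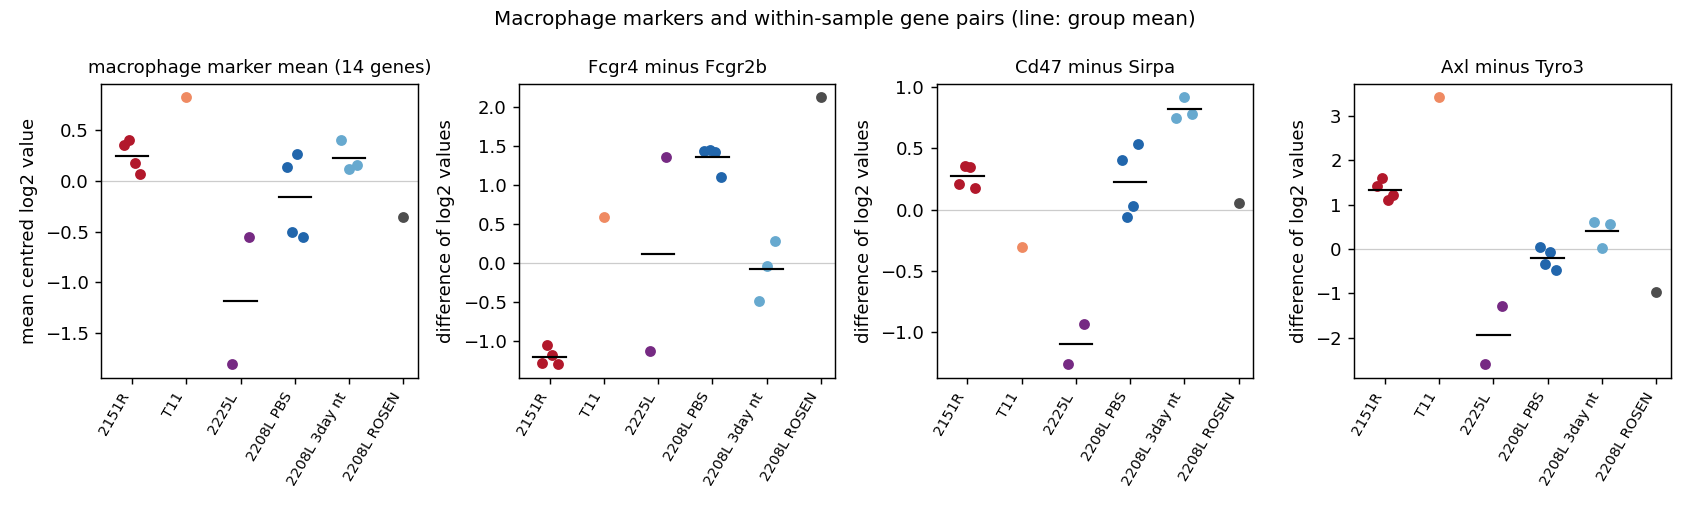
Mean of 14 macrophage marker genes (left, centred log2 value) and log2 ratios of 3 gene pairs within a sample (other panels), by model and subset of 2208L. Points are samples and lines are group means. The ratio of Fcgr4 to Fcgr2b is lower in all 4 samples of 2151R than in all 4 PBS samples.

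Macrophages are the main cells that carry most of these receptors, and macrophage markers moved with the comparisons between models. The mean of 14 markers, which hold none of the 10 genes, was 0.07 to 0.40 in 2151R, 0.83 in T11, -1.81 and -0.56 in 2225L and -0.55 to 0.40 in 2208L. Of the 14 markers, 7 were higher and 1 lower in 2151R relative to 2208L (26.1% and 22.7% of all genes). In 2225L, 0 were higher and 8 lower than in 2208L (15.6% and 17.3% of all genes). Against 2151R, 0 were higher and 11 lower in 2225L (22.8% and 25.8% of all genes). The 1 that was lower in 2151R was Cd14, named after its values were seen (difference -3.76). Cd14 is part of the marker mean, which averaged 0.25 in 2151R and -0.04 in 2208L. The median difference of the 14 markers was 0.58, so the mean understates the difference of most markers in this comparison. A covariate without Cd14 was not tested. With the mean of these markers as a covariate, 6 of the 7 genes called between 2151R and 2208L were still called, with Axl at 2.36, Mertk at 1.88 and Fcgr4 at -1.46, and Cd47 was not (0.56, limma adjusted p 0.0507). Of the 5 genes called between 2225L and 2208L, only Sirpa was still called with the covariate, at 1.11. The activating receptors (Fcgr1 -0.36, Fcgr3 -0.78 and Fcgr4 -1.0) and Tyro3 (0.53) no longer passed. Gas6, at 0.32 and not called without the covariate, was called at 1.88 with it. For 2225L against 2151R the covariate left 3 calls, Fcgr3 at -1.39, Mertk at -3.03 and Axl at -2.45. Within 2208L, 0 markers were higher and 2 lower in PBS samples, where 17.4% and 16.5% of all genes were. With the covariate Cd47 (-0.82), Mertk (1.37) and Tyro3 (0.95) were still called there, Fcgr4 was called at 0.90 and Fcgr2b was not (-0.55).

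Markers of other cell types differed as well, and their part in these results was not tested. Of all genes, 26.1% were called higher and 22.7% lower in 2151R against 2208L. For 2225L the shares were 15.6% and 17.3% against 2208L, and 22.8% and 25.8% against 2151R. For PBS against 3day nt they were 17.4% and 16.5%. With so few markers in a list, 1 or 2 calls lie near these shares. The mean of 7 markers of mesenchymal-like tumour cells was 0.92 to 1.43 in 2151R, 1.80 in T11, -1.89 and -2.12 in 2225L and -0.72 to 0.17 in 2208L, and 9 epithelial markers averaged -4.42 to -3.38, -8.39, 2.30 and 2.33, and 0.21 to 1.36 in the same order. Of 7 fibroblast markers, 3 were higher in 2151R than in 2208L, and of 6 endothelial markers all 6 were. Neutrophils carry Fcgr3 and Fcgr4, and NK cells carry Fcgr3. Of 7 neutrophil markers, 4 were higher in PBS than in 3day nt samples (mean 0.94 to 3.35 against -0.23 to 0.96), and 3 were lower in 2151R than in 2208L. Of the same 7, 5 were lower in 2225L than in 2208L, with a median difference of -3.57 and means of -1.97 and -2.33 in the 2225L samples. Of 5 NK cell markers, 3 were higher in 2151R than in 2208L and 3 were lower in 2225L than in 2151R (median difference -3.15). Of 8 T cell markers, 3 were lower in PBS than in 3day nt samples (median difference -1.60), and 6 fat markers averaged -1.28 and 2.77 there with 0 called. Fcgr2b is also a gene of B cells and dendritic cells. Of 7 dendritic cell markers 5 were lower in PBS than in 3day nt samples, and of 4 B cell markers 1 was. In 2225L, where Fcgr2b was low, 2 of these B cell markers were higher and 0 lower than in 2208L. Against 2151R, 2 were higher and 1 lower in 2225L. The median differences of the B cell markers were 0.92 and 0.74. Without the 3 samples of high muscle values the comparison of PBS with 3day nt keeps 1 sample of 3day nt, none of the 10 genes was called, and the differences were -0.71 for Fcgr2b, -0.85 for Cd47, 1.12 for Mertk and 0.74 for Tyro3 (limma adjusted p 0.133 to 0.357).

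The pathway lists below are read against the shares of all genes called: 26.1% higher and 22.7% lower for 2151R against 2208L, 15.6% and 17.3% for 2225L against 2208L, 22.8% and 25.8% for 2225L against 2151R, and 17.4% and 16.5% for PBS against 3day nt. Of 14 signalling genes downstream of Fc receptors, 7 were higher and 2 lower in 2151R relative to 2208L, 0 were higher and 7 lower in 2225L than in 2208L, and 0 were higher and 10 lower in 2225L than in 2151R. The median differences were 0.45, -0.91 and -1.30, beside 0.10, -0.04 and -0.10 over all genes. Syk, the kinase that binds the phosphorylated gamma chain, was higher in 2151R than in 2208L by 1.54 (SE 0.26) and lower in 2225L than in 2151R with a difference of -2.67 (SE 0.36). Fgr, a Src family kinase of myeloid cells, was lower than in 2208L in 2151R (difference -0.79, SE 0.29) and in 2225L (difference -2.17, SE 0.38). Within 2208L, 3 of the 14 were higher and 2 lower in PBS samples, among them Plcg2, a phospholipase, at 0.64 (SE 0.15) and Fcer1g, the gamma chain itself, at -0.77 (SE 0.23).

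Of 6 measured relatives of the Fc gamma receptors, 2 were higher and 1 lower in 2151R relative to 2208L, 0 differed between 2225L and 2208L, 2 were lower in 2225L than in 2151R and 3 were lower in PBS than in 3day nt samples. With so few genes, 1 or 2 calls lie near the shares over all genes. Fcrl1, an Fc receptor-like gene of B cells, differed by 2.03 (SE 0.41) between 2151R and 2208L and by -2.66 (SE 0.58) between 2225L and 2151R. The 4 measured B cell markers did not follow Fcrl1. Of them, 0 were called between 2151R and 2208L, and 2 were higher and 1 lower in 2225L than in 2151R. Trim21, a cytosolic antibody receptor, was lower in 2151R than in 2208L (difference -0.59, SE 0.14). Fcrla, another B cell gene, was lower in PBS than in 3day nt samples (difference -2.51, SE 0.46).

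Of 13 measured genes around Sirpa and Cd47 and of other inhibitory or opposing signals, 3 were higher and 4 lower in 2151R relative to 2208L, 0 were higher and 7 lower in 2225L than in 2208L, and 0 were higher and 8 lower in 2225L than in 2151R, with median differences of -0.12, -1.32 and -1.63. Lrp1, the receptor for calreticulin on phagocytes, was higher in 2151R than in 2208L by 3.20 (SE 0.30) and lower in 2225L than in 2151R (difference -3.80, SE 0.42). Thbs1, a secreted ligand of Cd47, was lower in 2151R than in 2208L (difference -1.96, SE 0.36) and, as the only one of the 13 called there, higher in PBS than in 3day nt samples (0.67, SE 0.17). Siglecg, an inhibitory receptor that binds Cd24, was lower in 2225L than in 2208L (difference -3.64, SE 0.89). Cd47 and Thbs1 thus differed in opposite directions in 2151R against 2208L and in PBS against 3day nt samples.

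Among 17 measured TAM ligands and other receptors for dying cells, 7 were higher and 6 lower in 2151R relative to 2208L, 1 was higher and 10 lower in 2225L than in 2208L, 2 were higher and 7 lower in 2225L than in 2151R, and 4 were higher and 1 lower in PBS than in 3day nt samples. The median differences were 0.25, -1.47, -1.02 and 0.15, and the counts for PBS lie near the shares over all genes. Timd2, of the Tim family, had the largest difference, with a mean of 7.47 in 2208L, 0.02 in 2151R and 0.01 in 2225L. The means of 2151R and 2225L lie near the unstated reference level, so whether Timd2 was expressed there is not known. Cd36, a scavenger receptor also made by fat and muscle, was higher in 2151R than in 2208L by 2.58 (SE 0.92). Adgrb1, an engulfment receptor known as Bai1, was higher in 2225L than in 2208L by 5.20 (SE 0.73) and than in 2151R by 5.09 (SE 0.80), and Msr1, a macrophage scavenger receptor, was lower in 2225L than in 2151R (difference -3.72, SE 0.33). Several 2208L samples held nearly the same low value of Adgrb1, so the size of its differences depends on the unstated offset. In PBS samples Megf10, an engulfment receptor, was higher than in 3day nt samples by 1.39 (SE 0.36), and Timd4, a phosphatidylserine receptor, was lower (difference -2.07, SE 0.52).

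Of 20 genes of the engulfment machinery, 10 were higher and 3 lower in 2151R relative to 2208L, 2 were higher and 12 lower in 2225L than in 2208L, 1 was higher and 15 lower in 2225L than in 2151R, and 4 were higher and 2 lower in PBS than in 3day nt samples. The median differences were 0.31, -0.68, -0.74 and 0.20, and the counts for PBS again lie near the shares over all genes. Dock2, a Rac activator of blood cells, was higher in 2151R than in 2208L by 1.36 (SE 0.25) and lower in 2225L than in 2151R (difference -3.20, SE 0.35). Dock1, its counterpart outside blood cells, was higher in 2225L than in 2151R by 0.99 (SE 0.31), and Elmo2, a partner of Dock1, was higher in 2225L than in 2208L by 1.38 (SE 0.16). Wasl, which promotes actin branching, was lower than in 2208L in 2151R (difference -3.48, SE 0.25) and in 2225L (difference -4.73, SE 0.32), and higher in PBS than in 3day nt samples by 0.97 (SE 0.16). Coro1a, an actin-binding protein of leukocytes, was lower in PBS samples (difference -0.73, SE 0.19).

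The 10 genes varied to different degrees over the 15 samples. The SD was 1.38 for Axl and 1.24 for Mertk, larger than that of 80.2% and 76.7% of all genes, and 0.52 for Sirpa and 0.58 for Cd47, larger than that of 34.7% and 40.8%. Among pairs of these genes, Fcgr1 and Fcgr3 had the most similar profiles, with a root mean square difference of 0.39 log2 units over the 15 samples after each gene was centred on its own mean. Fcgr2b and Cd47 followed at 0.42, and Fcgr4 and Axl were the most unlike at 1.62. Library ranges and cell markers differed between groups of samples, and in part within a model, so likeness is a description of these samples.

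By the same measure over all genes, the nearest profile to Fcgr1 was that of Pld4 (0.19). Fcgr3 was nearest to Samsn1 (0.18) and Cd84 (0.20), Fcgr2b to Pirb (0.28), an inhibitory receptor of myeloid and B cells, and Cd80 (0.30), and Fcgr4 to Fam149a (0.29) and Tgtp2 (0.31), an interferon-induced GTPase. Sirpa was nearest to Traf7 (0.15) and Hdac10 (0.16), and Cd47 to Grn (0.20) and Arrb2 (0.22). Axl was nearest to Apbb1ip (0.26) and Il34 (0.35), a ligand of the Csf1 receptor, Mertk to Notch2 (0.36) and Pkd1 (0.38), and Tyro3 to Src (0.32) and Ankrd42 (0.36). The median root mean square difference of all genes from these members ran from 0.80 for Sirpa to 1.42 for Axl.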

How the data were processed

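The values are log2 expression per gene symbol, centred per gene, as the authors deposited them in a table of 17271 genes and 15 samples. Log scale and median centring are named in the table's own name. The median over these samples is exactly 0 for only 6.51% of genes, so other samples entered the centring, and the offset before the logarithm is not stated. Per the labels' protocols, libraries were made from total RNA by poly(A) capture with a TruSeq kit. STAR, Salmon and mm10 are named in the submitters' processing notes, and their versions are not given in the sources used here. Precision rests on the spread between samples.

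Groups follow the titles. Every gene was tested with limma 3.58.1 in R 4.3.3, without a trend. Models were compared in 1 fit of all 15 samples, and PBS with 3day nt in a fit of 7. Calls required a Benjamini-Hochberg adjusted p-value under 0.05 across all 17271 genes, with no minimum fold. Fold is the difference as a power of 2. Alternatives were centring or quantile normalization of samples, filters on genes, a macrophage covariate, a minimum difference, subsets of samples and leaving out each sample.

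The members and gene lists were chosen with earlier results of these data known. Named genes are the members, the called gene that differed most, upward and downward, for each pathway list and comparison, the 2 nearest profiles of each called member, without predicted genes, and Trp53. One of these genes and one motif are not reported here. Other genes are marked in the text as chosen after their values were seen. All 10 members were placed by symbol in RefSeq GRCm38.p6, the assembly behind mm10, and 9 had a promoter there. Of the T cell and fat markers, 1 of 8 and 2 of 6 were higher in 2151R than in 2208L, and their values in PBS and 3day nt samples are in the report.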

Additional observations from a re-analysis of the deposited data

How the results depend on the processing

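Where 2225L was reduced to 1 sample, it is assumed to vary like the other models. No paired analysis was possible because replicates were numbered in accession order, which pairs nothing. Of 770 refits of single members, 690 kept direction and side of the threshold, 43 lost a call, 16 gained one and 21 changed sign. The sign changes were at differences that were not called. With the macrophage mean as a covariate they were Cd47 in 2225L against 2208L (0.023), Fcgr4 (0.46), Sirpa (0.30), Tyro3 (-0.74) and Gas6 (1.48) in 2225L against 2151R, and Fcgr1 in PBS against 3day nt (0.16). For Sirpa in 2225L against 2151R, centring each sample gave 0.046 and quantile normalization 0.017. Gas6 was -0.10 in 2225L against 3day nt samples alone, and 0.39 in PBS against 3day nt without the 3 samples of high muscle values. Leaving out 1 sample at a time gave ranges of -1.48 to 0.21 for Mertk and -0.44 to 1.07 for Gas6 in 2225L against 2208L, of -1.55 to 0.13 for Fcgr4, -1.23 to 0.27 for Gas6 and -0.094 to 0.028 for Sirpa in 2225L against 2151R, and of -0.079 to 0.23 for Fcgr3 in PBS against 3day nt.

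Counts moved by over 1.5 times in these cases, and except where fewer genes qualify or fewer samples enter by construction the cause was not tested. Requiring 1 log2 unit left 2585 genes higher and 2566 lower and 4 members called in 2151R against 2208L, and 1206 higher, 1002 lower and 1 member in PBS against 3day nt. The NT samples of 2151R alone gave 2753 higher and 4 members. With the macrophage covariate, 1920 genes were lower and 2 members were called in 2225L against 2208L. The same covariate gave 2833 lower and 3 members called in 2225L against 2151R, and 1156 lower in PBS against 3day nt. Without the samples of high muscle values, 76 genes were higher, 22 lower and 0 members were called in PBS against 3day nt. Leaving out 1 sample at a time gave 1362 to 3988 higher and 1017 to 3111 lower there, and 2 to 6 members in 2225L against 2208L. Since the table holds no counts, depth sets no stated limit.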
